A study of Homo sapiens with 3 samples.

Results

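The heat shock proteins and their cochaperones were examined in the human cell line MDA-MB-231, which derives from a basal breast carcinoma and is known as estrogen receptor-negative. Members were all probe sets annotated to exactly 1 gene symbol that named an HSP90, HSP70, HSP110, chaperonin, small HSP or DNAJ gene, or 1 of the cochaperone and regulator genes CHORDC1, AHSA1, STIP1, BAG1, BAG2, BAG3, CDC37, FKBP4 and HSF1. The rule found 189 of 54675 probe sets, which named 80 of 19775 genes, and of these 59 lay above a brightness floor. Cultures had been kept for 4 h in medium with 10% charcoal-stripped serum and then received 1 µM estradiol, 1 µM tamoxifen or, as control, 0.1% ethanol for 3 h. Each group held 1 array of total RNA from this 1 cell line, so the spread between cultures was not measured, no p-value is given, and the number of arrays limits every value.

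Heat shock proteins are molecular chaperones: they bind unfolded or unstable client proteins and help them fold, assemble or be degraded. HSP70 proteins work with J-domain proteins (the DNAJ families), which deliver clients and speed ATP hydrolysis, and with nucleotide exchange factors of the HSP110 and BAG families, which release the client. HSP90 matures kinases and steroid receptors, the estrogen receptor among them, together with cochaperones, and the transcription factor HSF1 binds heat shock elements in the promoters of the heat-inducible members.

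The deposited log2 values are centred on a baseline that the sources used here do not give, so a value says how a probe set stood in 1 column and not how abundant its RNA was. Comparisons were therefore differences between columns, and a gene was singled out when its difference reached 1.5-fold (0.58 on the log2 scale). That higher means more RNA, and that the log base is 2, was assumed. Across the 12067 genes above the floor the SD of the values was 0.49 for estradiol, 0.49 for tamoxifen and 0.20 for control. Because of this narrow control column, differences from control are also given with the control values doubled, a setting in which the unstated baseline need not cancel. The brightness floor was read as if the control values were differences divided by 2, while the main differences from control use them as deposited. These 2 steps thus rest on unlike assumptions about the control column, and which of them holds was not tested. The 27 probe sets for poly-A spikes, bacterial transcripts put into each labelling reaction, had a median estradiol minus control difference of 0.99 and a median tamoxifen minus control difference of 0.84. With the control doubled these spikes had medians of 0.44 and 0.36. Between tamoxifen and estradiol their median was -0.16. Their part in the differences below was not tested. All 9 markers of the line, among them VIM and CD44, lay in the brightest band. Of the genes usually absent from such cells, PGR, CDH1, FOXA1 and TFF1 lay below the floor. ESR1 and GATA3 lay above it, 1 of these 2 in the brightest band, and which of them was not recorded. Of the other lineages, PTPRC was the 1 leukocyte marker of 4 named above the floor, and COL1A1, PECAM1 and VWF were above it among 7 fibroblast and endothelial markers. None of these leukocyte, fibroblast and endothelial markers lay in the brightest band. PTPRC differed by 0.62 between tamoxifen and estradiol, past 1.5-fold. So did 1 of ESR1 and GATA3, with tamoxifen at -0.70 against control and -0.75 against estradiol. The other of these 2, COL1A1, PECAM1 and VWF stayed within 1.5-fold. Genes not expected in these cells thus passed 1.5-fold above this floor.

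CHORDC1, an HSP90 cochaperone whose gene is heat-inducible, differed most among the members between tamoxifen and both other columns. The RefSeq promoter window of the gene is shown because it held the longest run of heat shock element units found among the members. The 250 bases before the start site lie at chr11:90223050-90223299 on the minus strand of GRCh38.p14 and are printed with the GAA and TTC units of heat shock elements in capitals:
CHORDC1 promoter: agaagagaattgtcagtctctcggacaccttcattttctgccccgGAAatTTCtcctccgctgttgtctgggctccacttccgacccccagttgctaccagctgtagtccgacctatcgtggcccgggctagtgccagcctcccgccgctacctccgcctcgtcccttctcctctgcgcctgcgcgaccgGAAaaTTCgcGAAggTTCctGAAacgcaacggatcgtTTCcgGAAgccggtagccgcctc
The run of 5 alternating units spans positions -60 to -38 from the start site. The motifs searched on both strands were GAANNTTC and TTCNNGAA for 2 units, and the same continued by a further NNGAA or NNTTC for 3 units, so that every 3-unit match also holds a 2-unit one. Each window held 250 bases before and 50 after a start site, and some genes had several windows.

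At least 3 units occurred in a window of 6 of the 53 members above the floor that had one (11.3%), against 166 of all 27305 genes with a window (0.608%), and in 172 of all 35116 windows (0.49%). Of the 9848 named genes above the floor with a window, 54 had such a run (0.548%). The members were chosen by family, and the heat-inducible families are known for such elements. HSP90AB1 held a second run of 3 units, at -112 to -100 from the start site, that is not shown. For the other 5 members 1 run each, 4 units in HSPD1 and 3 in the rest, is set side by side because their genes had very different values in the tamoxifen column.
DNAJB6, chr7:157336865-157336893, plus strand: agagccgaGAAccTTCgcGAAggtggggc
DNAJA1, chr9:33025268-33025296, plus strand: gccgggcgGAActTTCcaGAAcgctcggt
HSPD1, chr2:197500060-197500090, minus strand: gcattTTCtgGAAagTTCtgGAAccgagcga
HSP90AA1, chr14:102087112-102087140, minus strand: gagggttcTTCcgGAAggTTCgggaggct
HSP90AB1, chr6:44247770-44247798, plus strand: ggagcaggTTCtgGAAgaTTCatgggctc
The difference between tamoxifen and control was 1.24 for CHORDC1, 0.63 for DNAJB6, 0.27 for DNAJA1, -0.01 for HSPD1, -0.07 for HSP90AA1 and -0.50 for HSP90AB1. Genes with 3 or more units thus lay both above and below control. Over all 54 genes above the floor with such a run, the median tamoxifen minus control difference was -0.02. Of these 54, 7 passed the 1.5-fold rule upward and 4 downward. Of all 12067 genes above the floor, 841 (6.97%) and 522 (4.33%) did, a smaller share in both directions. Shares over only the 9848 of these genes with a window were not computed. The palindromic estrogen response element, GGTCA and TGACC spaced by 3 open bases, was in no window of a member above the floor, and in 20 of all 35116 windows (0.057%). These matches describe letters in a window, not bound sites.

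Estradiol exceeded control by 1.5-fold or more in 2 of the 59 members (DNAJB9 and HSPB8) and lay below it by as much in 1 (CDC37). Of all 12067 genes above the floor, 5.83% were higher by that size and 2.65% lower. The members' share (3.39% and 1.69%) was thus no larger than the background in either direction. Their median difference was 0.03, beside 0.02 over all genes. With tamoxifen, 9 members were at least 1.5-fold higher (15.3%) and 2 lower (3.39%), where 6.97% and 4.33% of all genes were. Their median difference was 0.12, beside 0.02 over all genes. Averaging all probe sets of a gene in place of its brightest left 6 members higher and 2 lower. Both comparisons use the same control column and are not independent.

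Between tamoxifen and estradiol, which does not involve the control column, 1 member was at least 1.5-fold higher and 0 were lower, where 1.57% and 2.2% of all genes were. The median over the members was 0.09, beside -0.02 over all genes. Of the 59 members 37 lay above 0 and 22 below, where of all 12067 genes 5643 lay above and 6412 below. At 2-fold, CHORDC1 alone passed among the members, with tamoxifen over both other columns, while 1.1% of all genes were that much higher with estradiol than control, 1.23% with tamoxifen than control and 0.0829% with tamoxifen than estradiol, and 0.232%, 0.472% and 0.24% lower.

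**Figure D1:**
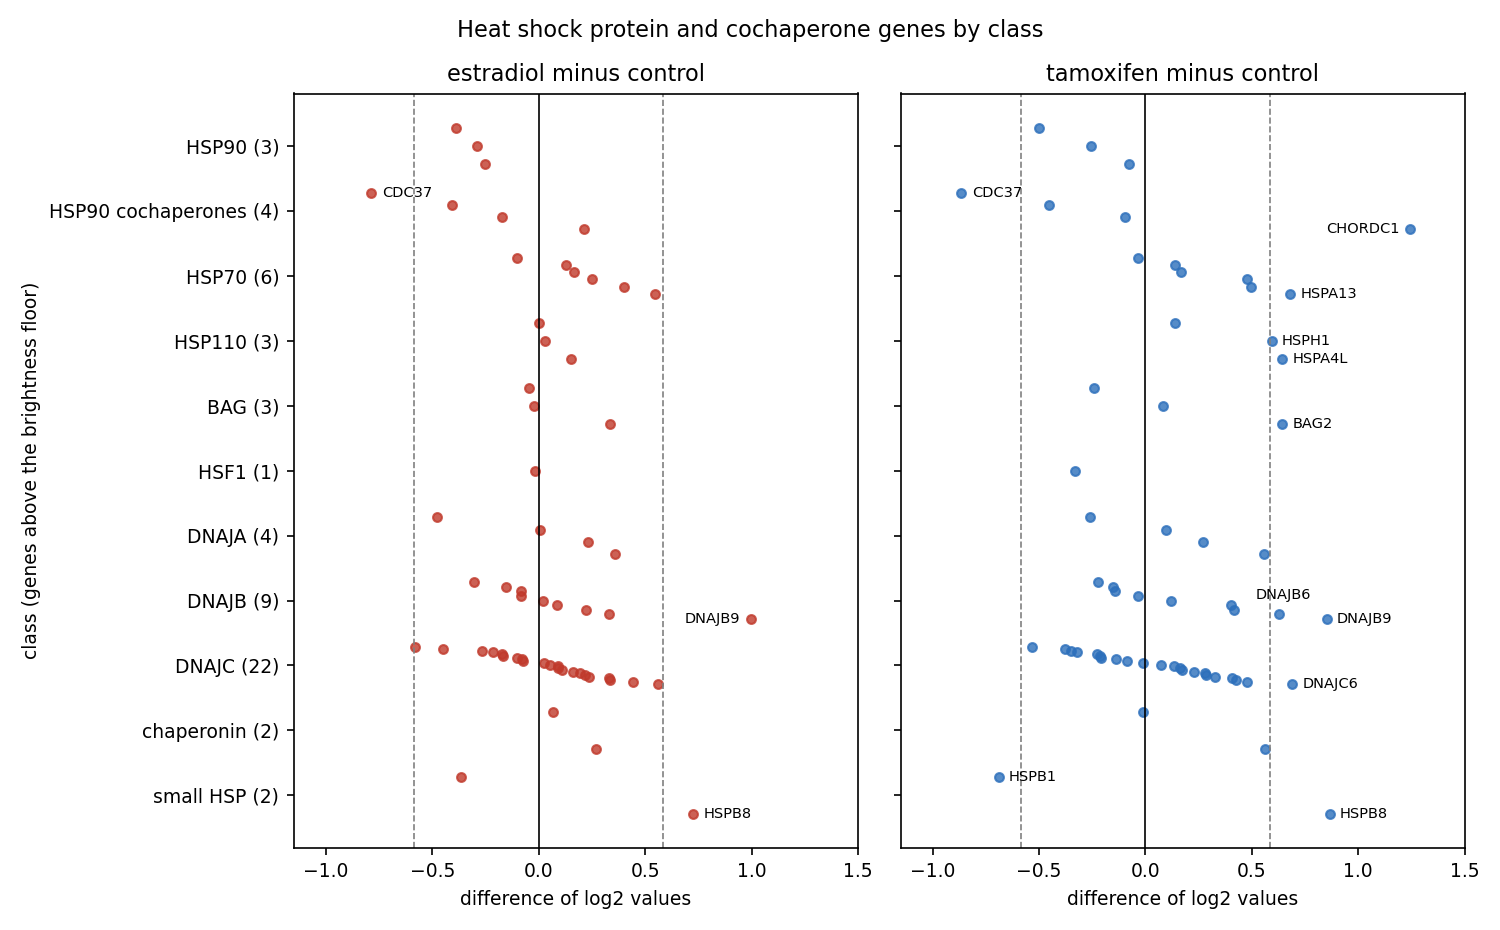
Difference from control (x axis, log2 scale) with estradiol (left) and tamoxifen (right) of each member gene above the brightness floor, 1 point per gene, by class (y axis, number of genes in parentheses). Dashed lines mark 1.5-fold, and genes past it are named: 3 with estradiol and 11 with tamoxifen.

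The 3 HSP90 genes lay below control in both ligand columns without reaching 1.5-fold, though HSP90AA1 with tamoxifen was 0.04 above with the control doubled. HSP90AB1, the constitutive cytosolic form, had a value of -0.34 with estradiol, -0.55 with tamoxifen and -0.05 in control. Its tamoxifen minus control difference of -0.50 was the mean of 3 probe sets that spread from -1.07 to -0.14. Without probe sets that can match several transcripts, that difference was -0.68, past the size rule. HSP90AA1, the stress-inducible cytosolic form, had -0.36 with estradiol, -0.19 with tamoxifen and -0.11 in control, over 4 probe sets. These ran from -0.42 to 0.14 between tamoxifen and control, with both signs, and from -0.40 to -0.08 between estradiol and control. The estradiol column was the lowest of the 3 for this gene. HSP90B1, the form of the endoplasmic reticulum (GRP94), differed from control by -0.39 with estradiol and -0.26 with tamoxifen in its brightest probe set. Its second probe set above the floor differed by -1.36 and -0.84, and both are of a type whose probes can match related transcripts. With the control doubled, HSP90B1 with estradiol passed the size rule at -0.62.

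The HSP90 cochaperones went in opposite directions. CHORDC1 stood at 0.00 with estradiol, 1.03 with tamoxifen and -0.21 in control. The tamoxifen column was high alone, 2.37-fold above control (1.24) and 2.04-fold above estradiol (1.03). Against control the difference lay at percentile 99.5 of all genes above the floor, and against estradiol at percentile 99.9. Doubling the control gave 1.45 for the first. The value rests on 1 probe set whose probes can match several transcripts, as do those of CDC37, DNAJB6, DNAJC6, HSPB1, HSPB8 and HSPE1, and the second CHORDC1 probe set, below the floor, was higher with tamoxifen by 0.62 against control and by 0.61 against estradiol.

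CDC37, which recruits kinases to HSP90, stood at -1.32 with estradiol, -1.39 with tamoxifen and -0.53 in control. Both ligand columns were low, 1.72-fold below control with estradiol (-0.79) and 1.82-fold with tamoxifen (-0.86), and they differed from each other by -0.08. Doubling the control gave -0.26 and -0.34, within the size rule. STIP1 (HOP), the adaptor that joins HSP70 to HSP90, had -0.69 with estradiol, -0.74 with tamoxifen and -0.29 in control, differences of -0.40 and -0.45, which became -0.12 and -0.16 on doubling the control. FKBP4 (FKBP52), an immunophilin of steroid receptor complexes, differed by -0.17 and -0.10, and by 0.11 and 0.19 with the control doubled, so its sign is not settled. AHSA1, the activator of the HSP90 ATPase, had no probe set under its own symbol alone and was not analysed here.

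**Figure D2:**
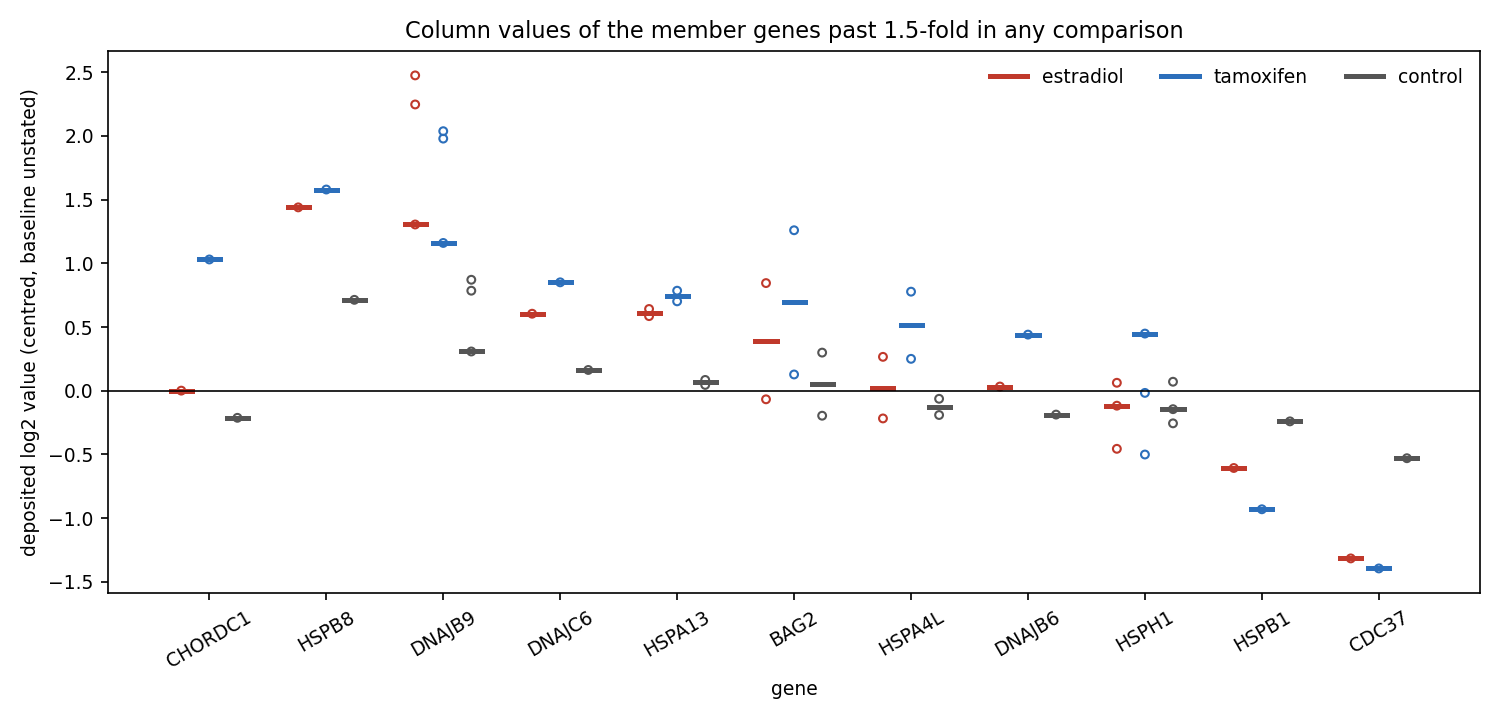
Deposited log2 values (y axis, centred on an unstated baseline) of the 11 member genes at least 1.5-fold different in any comparison, in the estradiol, tamoxifen and control columns. Thick bars are the gene values used and open circles all probe sets above the floor. CHORDC1 is high in the tamoxifen column alone, DNAJB9 and HSPB8 are high in both ligand columns, and the 3 probe sets of HSPH1 disagree.

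Among the HSP70 genes, HSPA13 (STCH), an HSP70-like ATPase of the microsomal fraction, was the 1 member past the size rule. It had values of 0.61 with estradiol, 0.74 with tamoxifen and 0.07 in control, so both ligand columns were high. The differences from control were 0.55 and 0.68, and with the control doubled 0.48 and 0.61. Its 2 probe sets gave 0.54 and 0.56 with estradiol, and 0.74 and 0.62 with tamoxifen. HSPA14, a ribosome-associated HSP70, differed by 0.40 with estradiol and 0.50 with tamoxifen. HSPA12B, a divergent family member, differed by -0.10 and 0.48, and by 0.58 between tamoxifen and estradiol, just short of the rule. HSPA5 (BiP), the main HSP70 of the endoplasmic reticulum, differed by 0.13 and 0.14, and HSPA9 (mortalin), that of mitochondria, by 0.16 and -0.04. HSPA1L, a form best known from testis, differed by 0.25 and 0.17. HSPA6, a strictly heat-inducible form, HSPA2 and HSPA12A lay below the floor. The probe sets of HSPA1A, HSPA1B and HSPA8 carry several symbols each and were not analysed here.

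The HSP110 genes, whose products are nucleotide exchange factors of HSP70, were higher with tamoxifen than in either other column as gene values, although the probe sets of HSPH1 and HSPA4 disagree. HSPA4L had 0.02 with estradiol, 0.51 with tamoxifen and -0.13 in control. The tamoxifen column was high alone, by 0.64 over control and by 0.49 over estradiol. Its 2 probe sets gave 0.84 and 0.44 over control and 0.51 and 0.47 over estradiol. HSPH1 had -0.12 with estradiol, 0.45 with tamoxifen and -0.14 in control in its brightest probe set, differences of 0.59 and 0.57. Its other probe sets above the floor differed between tamoxifen and control by 0.24 and -0.57, and the mean of all 3 was 0.09. Against estradiol those 2 were at -0.08 and -0.04. The direction for HSPH1 therefore depends on the probe set. HSPA4 differed between tamoxifen and control by 0.14 and between estradiol and control by 0.00, and its 4 probe sets above the floor ran from -0.47 to 0.56 with estradiol.

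Of the BAG genes, BAG2, which inhibits the ubiquitin ligase CHIP, had 0.39 with estradiol, 0.69 with tamoxifen and 0.05 in control. The differences from control were 0.34 and 0.64 as means of 2 probe sets, which gave 0.96 and 0.32 with tamoxifen. Another BAG2 probe set, below the floor, differed by -1.24 with estradiol and -0.44 with tamoxifen, and with it the means were -0.19 with estradiol, a turn in sign, and 0.28 with tamoxifen. BAG3, a heat-inducible partner of HSPB8 in the disposal of damaged proteins, differed by -0.02 and 0.08. BAG1 differed by -0.05 and -0.24, but its probe set below the floor was at 0.83 and 0.96, and the mean with it was 0.25 and 0.16. HSF1 itself stood at -0.06 with estradiol, -0.37 with tamoxifen and -0.04 in control in its 1 probe set above the floor. There its tamoxifen value was the lowest, by -0.33 against control and by -0.31 against estradiol. Neither reached 1.5-fold. Its probe set below the floor went the other way, by 0.29 against control and by 0.25 against estradiol. With it the mean against control was -0.02.

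Among the J-domain proteins, DNAJB9 (ERdj4), a cochaperone of BiP that is induced by unfolded proteins in the endoplasmic reticulum, had the largest difference. In its brightest probe set it stood at 1.30 with estradiol, 1.16 with tamoxifen and 0.31 in control. Both ligand columns were high, 1.995-fold over control with estradiol (0.996) and 1.80-fold with tamoxifen (0.85). Its other 2 probe sets, also above the floor, gave 1.46 and 1.60 with estradiol and 1.19 and 1.17 with tamoxifen. All 3 thus passed the size rule with both ligands. With the control doubled the brightest gave 0.69 and 0.54, the second within the rule. DNAJB6, a suppressor of protein aggregation, had 0.03 with estradiol, 0.44 with tamoxifen and -0.19 in control. It was higher with tamoxifen by 0.63 over control and by 0.41 over estradiol, and the difference from control was 0.81 with the control doubled.

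The remaining DNAJB genes stayed within 1.5-fold. DNAJB1, the J protein that partners heat-induced HSP70, differed by -0.08 with estradiol and -0.15 with tamoxifen in its brightest probe set, and by 0.29 and 0.16 in its other. DNAJB14, of the membrane of the endoplasmic reticulum, was at 0.42 with tamoxifen against 0.02 with estradiol. DNAJB4 differed by 0.33 and 0.40, and DNAJB12 by -0.30 and -0.14, and with tamoxifen by 0.09 with the control doubled. Of the 4 DNAJA genes, none reached the rule. Against control, 5.83% of all genes were higher and 2.65% lower with estradiol, and 6.97% and 4.33% with tamoxifen. DNAJA2, a cytosolic J protein, came nearest at 0.36 with estradiol and 0.56 with tamoxifen, with both its probe sets positive. DNAJA1 differed by 0.23 and 0.27 and DNAJA4 by 0.00 and 0.10. DNAJA3 (TID1), of mitochondria, differed by -0.48 and -0.26, and by -0.13 and 0.09 with the control doubled, a turn in sign for tamoxifen.

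Of the 22 DNAJC genes above the floor, 0 passed the rule with estradiol, where 5.83% of all genes were higher and 2.65% lower. With tamoxifen 1 was higher (4.55%) and 0 were lower, where 6.97% and 4.33% of all genes were. The 1 higher was DNAJC6 (auxilin), which helps HSC70 to uncoat clathrin vesicles, with 0.60 with estradiol, 0.85 with tamoxifen and 0.16 in control. Its differences from control were 0.44 and 0.69, and 0.28 and 0.52 with the control doubled. DNAJC1, a J protein of the endoplasmic reticulum, differed by -0.58 with estradiol and -0.09 with tamoxifen in its brightest probe set, which put tamoxifen 0.49 above estradiol, but by 0.04 and 0.04 in another above the floor and by -0.28 and 0.11 in the remaining one. DNAJC16 differed by 0.56 and 0.41 and DNAJC10 (ERdj5), a disulfide reductase, by 0.33 and 0.43. DNAJC7 (TPR2), which binds both HSP70 and HSP90, differed by -0.45 and -0.53, and by -0.07 and -0.15 on doubling the control. Its 2 probe sets gave -0.84 and -0.23 with tamoxifen, the first past the rule. DNAJC24, needed for diphthamide synthesis, differed by 0.24 and 0.48, and DNAJC2, a ribosome-associated J protein, by -0.07 and 0.29. Between tamoxifen and estradiol the lowest DNAJC values were -0.37 for DNAJC8, a splicing-associated member, and -0.32 for DNAJC18.

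The mitochondrial chaperonin genes HSPD1 (HSP60) and HSPE1 (HSP10) lie head to head, and their values differed. HSPE1 had 0.05 with estradiol, 0.34 with tamoxifen and -0.22 in control, differences of 0.27 and 0.56 from control. With the control doubled the tamoxifen difference was 0.78, past the rule. HSPD1 had 0.08 with estradiol, 0.00 with tamoxifen and 0.01 in control, and its 2 probe sets in the brightest band gave 0.27 and -0.29 between tamoxifen and control.

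The 2 small HSP genes above the floor went opposite ways. HSPB8 (HSP22), which acts with BAG3, had 1.44 with estradiol, 1.58 with tamoxifen and 0.71 in control. Both ligand columns were high, 1.65-fold over control with estradiol (0.73) and 1.82-fold with tamoxifen (0.87). Its control value was also high, and with the control doubled the differences were 0.01 and 0.15. Its second probe set, below the floor, differed by -0.19 with estradiol and 0.31 with tamoxifen. With it the means were 0.27 with estradiol, within the size rule, and 0.59 with tamoxifen. HSPB1 (HSP27), an abundant estrogen-responsive protein of receptor-positive breast cells, had -0.61 with estradiol, -0.93 with tamoxifen and -0.24 in control. It was 1.61-fold lower than control with tamoxifen (-0.69), and differed by -0.37 with estradiol. Doubling the control gave -0.13 with estradiol and -0.45 with tamoxifen. The promoter windows of both genes held 2-unit heat shock elements. HSPB8 had a further one, not shown, at positions 5 to 12 from the start site. For each gene 1 element is shown because the genes share the motif and not the direction.
HSPB8, chr12:119178835-119178858, plus strand: tcacctccGAAtaTTCctgtgaca
HSPB1, chr7:76302483-76302506, plus strand: taacgagaGAAggTTCcagatgag
A 2-unit element was in a window of 18 of the 53 members above the floor (34%), against 16.2% of all genes with a window. Of named genes above the floor with a window, 13.8% had one. HSPB2, HSPB3, HSPB6, HSPB7 and HSPB9 lay below the floor.

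**Figure D3:**
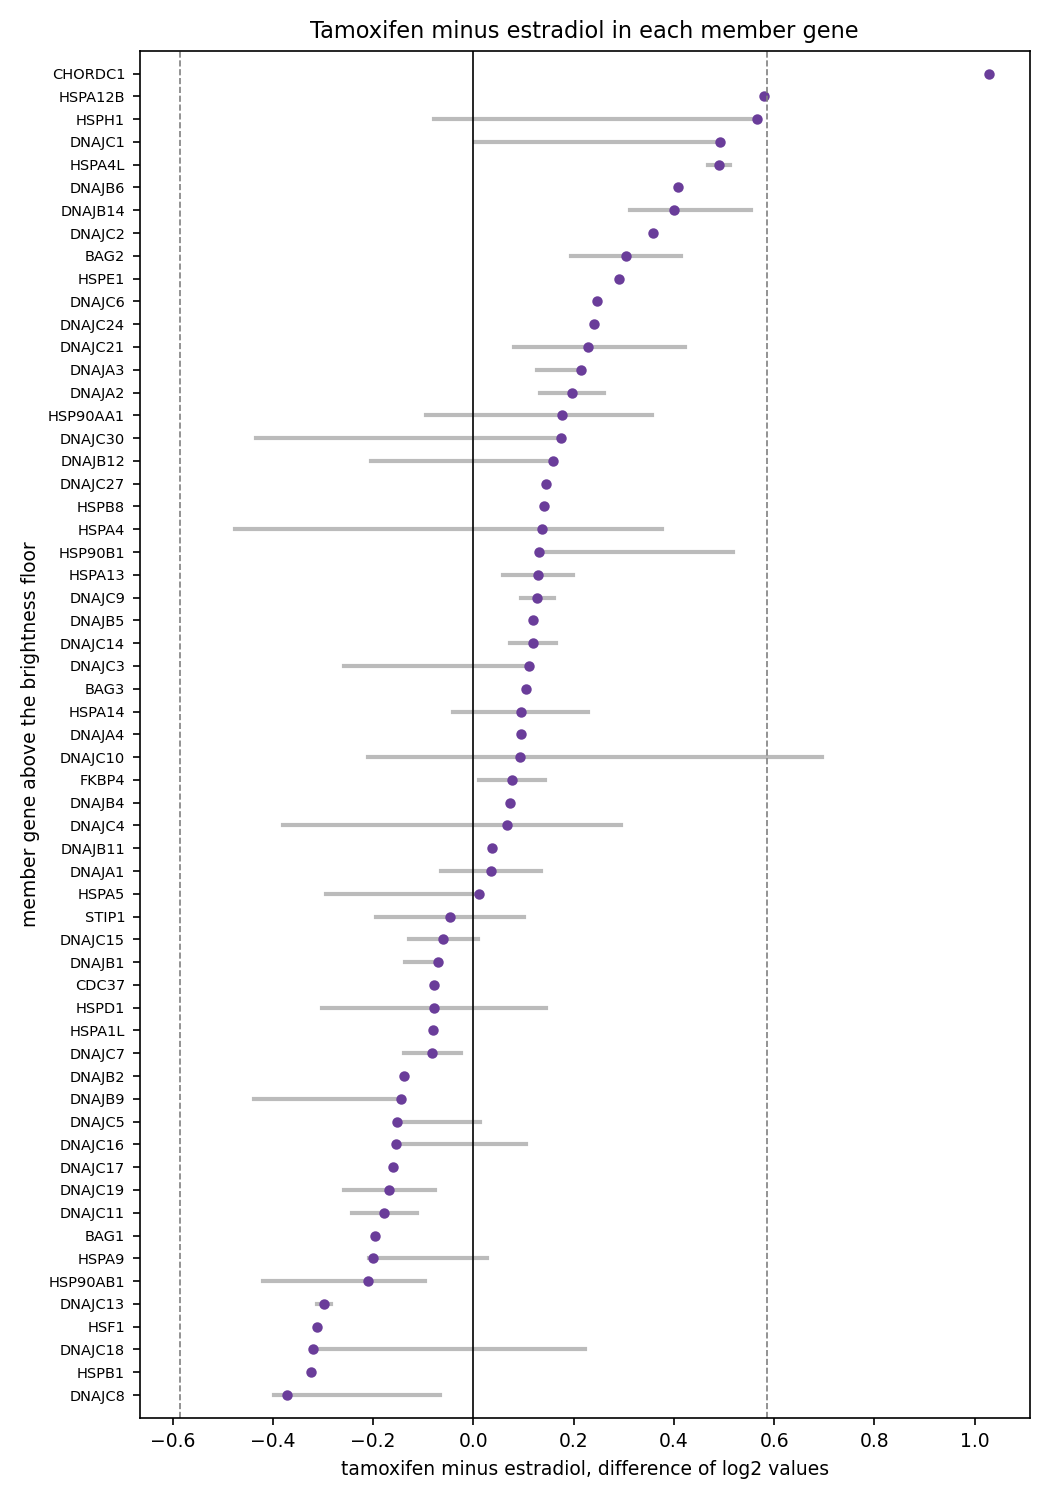
Tamoxifen minus estradiol (x axis, log2 scale) of the 59 member genes above the floor, ordered by size. Points are gene values, grey bars the range over all probe sets above the floor and dashed lines 1.5-fold, which CHORDC1 alone passes as a gene value, at 1.03.

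Grouped by where or how they act, the members of each set lay on both sides of control with estradiol. Above and below it lay 8 and 7 heat-inducible HSF1 targets, 9 and 3 endoplasmic reticulum members and 5 and 3 mitochondrial members. Of all genes, 6429 lay above and 5638 below. The 15 heat-inducible HSF1 targets above the floor had a median of 0.03 with estradiol, 1 of them at least 1.5-fold higher (6.67%) and 0 lower, where 5.83% and 2.65% of all genes were. With tamoxifen the median was 0.08, with 4 higher (CHORDC1, HSPB8, HSPA4L and HSPH1, 26.7%) and 1 lower (HSPB1, 6.67%), where 6.97% and 4.33% of all genes were. Of these 15, 8 lay above control with tamoxifen and 7 below, where 6291 and 5776 of all genes did. Gene values of HSP90AA1, DNAJB1 and BAG3 stayed between -0.15 and 0.08, though the probe sets of HSP90AA1 and DNAJB1 had both signs. Within 1.5-fold but further from control were HSPE1 at 0.56, STIP1 at -0.45 and HSP90AB1 at -0.50. The 12 members of the endoplasmic reticulum had a median of 0.11 with estradiol, with 1 higher (DNAJB9, 8.33%, beside the 5.83% of all genes), and of 0.23 with tamoxifen, with 2 higher (DNAJB9 and HSPA13, 16.7%, beside 6.97%). DNAJB11, another BiP cochaperone, differed by 0.08 and 0.12, and DNAJC3 by 0.22 and 0.33 in its brightest probe set, while its other 2 above the floor gave -0.43 and 0.00 with estradiol and -0.69 and 0.06 with tamoxifen. The ER stress element, CCAAT and CCACG spaced by 9 open bases, was in the windows of HSPA5 and HSP90B1 alone among the 11 such members with a window, and in 27 of all 35116 windows (0.0769%), on either strand. The 8 mitochondrial members had medians of 0.12 and 0.03, with 0 past the rule in either comparison. Of all genes, 5.83% were higher and 2.65% lower with estradiol, and 6.97% and 4.33% with tamoxifen.

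Probe sets of 1 gene give the only measure of spread in these data. Of 39 members with several probe sets above the floor, all probe sets had the same sign in 23 for estradiol minus control, 24 for tamoxifen minus control and 21 for tamoxifen minus estradiol. The median SD between probe sets of a member was 0.20, 0.22 and 0.15 in these comparisons. Differences from control of that size or less, which include those of BAG3, HSPA4, HSPA5 and HSPA9 with both ligands, cannot be told from the disagreement between probe sets. This spread leaves out any difference between cultures.

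A list of other genes of the chaperone network, not members, was also read. Of 35 above the floor, 2 were higher and 2 lower with estradiol, and 1 was higher and 0 lower with tamoxifen, with medians of -0.01 and 0.02. These shares were 5.71% and 5.71% with estradiol and 2.86% and 0% with tamoxifen, where 5.83% and 2.65%, and 6.97% and 4.33%, of all genes were. VBP1, a prefoldin subunit, was at 0.64 and 0.76, and CLPB, a mitochondrial disaggregase, at 0.59 and 0.05. TRAP1, the mitochondrial HSP90, was at -0.60 and -0.55, and UNC45A, a myosin cochaperone, at -0.59 and -0.36. Doubling the control gave -0.16 and -0.11 for TRAP1 and -0.36 and -0.12 for UNC45A, so that 0 genes of the list were lower, and the median with estradiol was then 0.06. HSCB, the iron-sulfur J protein, was at -0.50 with estradiol, PPP5C, an HSP90-bound phosphatase, at -0.56 with tamoxifen, and PTGES3 (p23), which stabilises HSP90 complexes, at 0.45 with tamoxifen. Between tamoxifen and estradiol, CLPB was at -0.54, CDC37L1 at -0.52, HSCB at 0.49 and SUGT1 at 0.43, and no gene of the list reached 1.5-fold. The 7 subunits of the cytosolic chaperonin CCT above the floor lay between -0.26 and 0.25 in the comparisons with control.

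**Figure D4:**
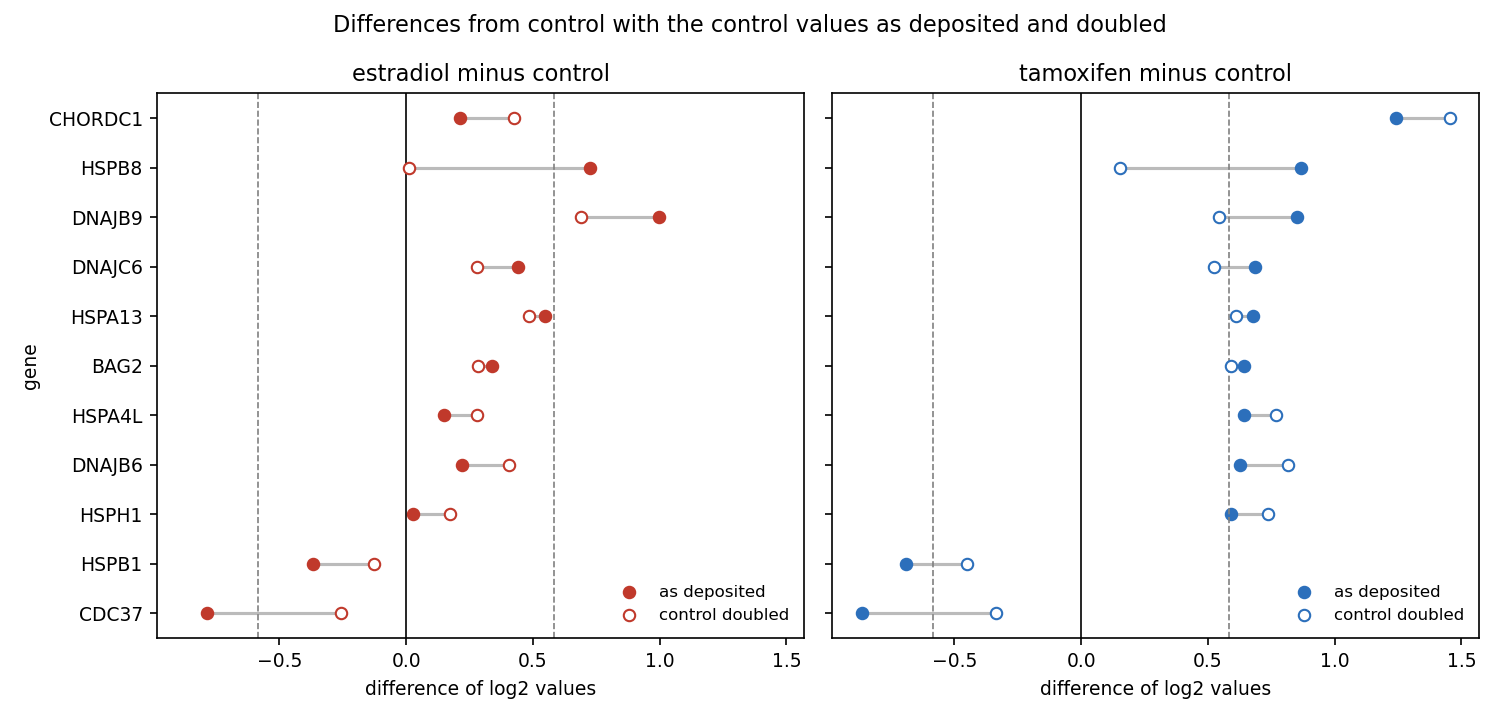
Differences from control (x axis, log2 scale) of the same 11 genes with the control values as deposited (filled) and doubled (open), for estradiol (left) and tamoxifen (right). Dashed lines mark 1.5-fold. With the control doubled, DNAJB9 stays past it with estradiol, and CHORDC1, HSPA13, BAG2, HSPA4L, DNAJB6 and HSPH1 stay past it with tamoxifen.

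Doubling the control left 1 of the 3 members past the rule with estradiol in the same direction, DNAJB9, and 6 of the 11 with tamoxifen. HSPB8, CDC37 and HSPB1 were not among them. HSPE1, HSPA14 (0.60) and HSPA12B (0.66) passed it with tamoxifen in that setting alone, so that 9 members were higher and 0 lower, where 7.14% and 3.64% of all genes were. With estradiol that setting had 1 member higher and 1 lower (HSP90B1), where 4.39% and 1.92% of all genes were.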

How the data were processed

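Biotin-labelled RNA of MDA-MB-231 cells was read on Affymetrix arrays, per the labels' protocols. The deposited log2 values were made by the authors with RMA (version not stated), per the submitters' processing notes. They are centred per probe set, with column medians of -0.02 for estradiol, -0.02 for tamoxifen and -0.04 for control. The baseline, its centring step and any pooling of arrays are not given in the sources used here. Each of the 3 columns was 1 sample, mapped by its name.

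Members and lists were chosen with earlier results of these data known. Named were all members past 1.5-fold, all members of the smaller classes, and the 4 largest of each DNAJ family per comparison. DNAJB1, DNAJB11, DNAJC3, DNAJC15, HSPA5, HSPA9, HSPA12B and HSPA14 were added after their values were seen. Of 54675 probe sets 41097 had 1 symbol, 1801 several and 11777 were not in the platform annotation, and only the first were used. All 189 member probe sets matched the RefSeq gene table and 0 symbols needed updating.

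A planned floor on levels could not be applied to centred values. Brightness was read from the binary steps of the numbers, since single-precision levels of 8 to 16 are stored in coarser steps than levels of 4 to 8, and each probe set was placed by its finest step over the columns (control shifted by 1). Probe sets in those 2 bands were kept. A level that dropped below 4 in 1 column can put a probe set under the floor. A gene was given the mean of those of its probe sets that shared its brightest band. Bands and size calls were tested on simulated data. There the control was made as a difference divided by 2, as the band reading assumes, so that reading of the control was not itself tested. Size calls were tested between tamoxifen and estradiol only, with planted changes of 1 on the log2 scale. No test was run. Promoter windows of RefSeq (GRCh38.p14) were found for 53 of the 59 members. Python 3.11.15, pandas 2.3.3 and matplotlib 3.10.9 were used. The alternatives were no floor, a floor of 8, no probe sets that can match several transcripts (cross-reacting), all probe sets averaged, probe sets in place of genes, centred columns, a 2-fold rule and the control doubled.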

Additional observations from a re-analysis of the deposited data

Results flagged for a closer look

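A DNAJB4 probe set below the brightness floor, outside the gene values of the report, was 1.54 higher on the log2 scale with estradiol than in control, while the probe set above the floor differed by 0.33. A DNAJC15 probe set below the floor was 1.18 higher with tamoxifen than in control, while the 2 above it differed by -0.05 and 0.32. Both stood out because a signal above control appeared in data the comparisons did not use.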

How the results depend on the processing

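Counts past the size rule did not all hold. Medians over the members moved by less than the median SD between probe sets of a gene under every alternative run. That SD is larger than the medians themselves, so this does not show that they are stable. The tamoxifen minus control median went from 0.12 to 0.06 with no floor. With centred columns the estradiol minus control median went from 0.03 to 0.0005. The members counted were 59, but 80 with no floor, 39 with a floor of 8 and 42 without cross-reacting probe sets. A lower count there can mean fewer genes. Shares over all genes were computed only for the main setting, the 2-fold rule and the control doubled. With estradiol the 2 higher members became 1 without cross-reacting probe sets, 1 with the control doubled, 5 of 117 probe sets and 0 at 2-fold. With the control doubled the 1 lower member was HSP90B1 in place of CDC37. Elsewhere the 1 lower member became 3 with no floor, 0 with a floor of 8, 0 without cross-reacting probe sets, 2 with all probe sets averaged, 2 with centred columns, 4 probe sets and 0 at 2-fold. With tamoxifen the 9 higher members of 59 became 6 of 80 with no floor and 6 of 39 with a floor of 8. The count was 6 with all probe sets averaged, 8 with centred columns and 4 of 42 without cross-reacting probe sets. It was 14 of 117 when probe sets were counted, 1 at 2-fold and 9 with the control doubled. The 2 lower became 3 with no floor, 1 with a floor of 8, 1 without cross-reacting probe sets, 0 with the control doubled, 6 probe sets and 0 at 2-fold. The 1 without cross-reacting probe sets was HSP90AB1 (-0.68), since that setting leaves out the only probe sets of CDC37 and HSPB1. Between tamoxifen and estradiol the 1 higher member, CHORDC1, became 0 with a floor of 8 and 0 without cross-reacting probe sets, both of which leave its 1 probe set out, and 2 when probe sets were counted. The 0 lower members became 1 with no floor. No difference past the rule changed sign, but smaller ones of named members did: 15 of 114 with all probe sets averaged (BAG2 with estradiol among them), 8 of 76 with the control doubled, 6 of 72 without cross-reacting probe sets (among them HSPH1 between tamoxifen and estradiol, -0.08) and 3 of 114 with centred columns. No paired analysis was possible because each group held 1 array, and no replicate could be left out. Without levels, signal over background was known only as a band.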

Other observations

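The 21 member genes below the floor had 32 probe sets, with median differences from control of -0.01 with estradiol and 0.06 with tamoxifen. HSPA2 had the lowest tamoxifen minus control difference at -0.88, DNAJC22 the lowest estradiol minus control difference at -0.93 and DNAJC5B the highest at 0.89. All 5 antisense and divergent transcripts that the symbol rule took in (DNAJB8-AS1, DNAJC3-DT, DNAJC9-AS1, DNAJC27-AS1 and HSPA2-AS1) were among them. DNAJB7, DNAJB8, DNAJB13, DNAJC5G, DNAJC12 and DNAJC28 were also below the floor.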
